A study of Mus musculus with 4 samples.

Results

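The SLC25 carriers are the main transporters of the inner mitochondrial membrane, and the 47 genes of this family that the deposited values list under a symbol of the form Slc25a followed by digits were examined in mouse brown fat. They are 47 of 55387 listed rows, which carry 55287 different symbols. The uncoupling proteins Ucp1, Ucp2 and Ucp3 and the genes Mtch1 and Mtch2 belong to the same protein family under other symbols and are not among the 47. Members were chosen by symbol alone, without a cut on their values, but with earlier results of these data known.
Most carriers of this family exchange 1 metabolite for another across the inner membrane: ADP for ATP, phosphate, citrate, malate, aspartate for glutamate, acylcarnitines, cofactors such as coenzyme A and NAD, or iron. Brown adipocytes burn fatty acids in mitochondria to make heat, and the fatty acids enter the matrix as acylcarnitines, whereas citrate leaves the matrix when fatty acids are made in the cytosol. The proteins are encoded in the nucleus and imported through the TIM22 translocase.

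Brown fat of 4 male mice, 15 weeks old, was sequenced for RNA, with 1 library from each mouse. The 2 control mice were littermates that the paper names Sox4f/f, carrying a Sox4 gene flanked by loxP sites without Cre, and that the sample labels call WT. The other 2 mice, labelled Sox4-MKO, carried the same Sox4 allele together with Myf5-Cre, which is active in precursors of both brown adipocytes and skeletal muscle, so deletion is not restricted to brown fat. The comparison was made to ask which genes depend on SOX4 in brown fat. The groups also differ in carrying Myf5-Cre, so Sox4 deletion and the presence of Cre cannot be told apart here. Values are FPKM, the number of fragments scaled to transcript length and to the mapped fragments of the library, so that levels of different genes can be compared.

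The depth was estimated from the lowest values of single-transcript genes at about 12000000 to 13400000 fragments in 3 libraries, and the estimate was not stable for Sox4-MKO 2. Sox4 mRNA was 1.98 and 1.06 FPKM in Sox4f/f mice 1 and 2 and 0.981 and 3.06 FPKM in libraries 1 and 2 labelled Sox4-MKO. The transcript was thus not lower under that label, and every direction below follows the labels. By western blot, the paper reports strongly reduced SOX4 protein in brown fat of other, younger Sox4-MKO mice. The 9 brown adipocyte markers summed to 7422 and 7262 FPKM in Sox4f/f mice against 3608 and 4353 FPKM, with a median log2 fold change of -0.86. At an unadjusted p under 0.05 by limma, 5 of them were lower, against 8.28% of all genes tested. In the other direction, 1 marker (Lhx8) was higher, against 7.95%. Ucp1 had 1935 and 1814 against 733 and 1105 FPKM, whereas Elovl3, Zic1 and Lhx8 stayed under 5 FPKM in every library. Skeletal muscle transcripts differed most between libraries: the 12 muscle markers, none of which was at 0, summed to 230 and 818 FPKM in Sox4f/f mice 1 and 2 and to 15650 and 3070 FPKM in libraries 1 and 2 labelled Sox4-MKO. The 8 macrophage markers summed to 213 and 316 against 442 and 434 FPKM, the 8 erythroid markers to 842 and 1231 against 1556 and 1019 FPKM, the 8 general adipocyte markers to 14616 and 14459 against 12109 and 17941 FPKM, the 6 white adipocyte markers to 213 and 167 against 513 and 604 FPKM and the 5 endothelial markers to 127 and 162 against 100 and 149 FPKM. The 4 B cell markers stayed under 1 FPKM each. In such bulk samples, fewer cells of a type and less RNA per cell cannot be told apart.

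Summed over the 47 members, the carriers had 2872 and 3041 FPKM in Sox4f/f mice and 3497 and 2811 FPKM under the Sox4-MKO label. The genotypes overlapped, since Sox4-MKO 1 had the highest sum and Sox4-MKO 2 the lowest. The mean was 2956 ± 120 FPKM in the control mice against 3154 ± 485 FPKM in the Sox4-MKO-labelled mice (SD, n = 2 mice each, exact two-sided permutation p = 1.000). With 2 mice against 2, this test cannot give a p below 0.333. The log2 ratio of the means was 0.09, and it was -0.07 without Sox4-MKO 1. As a share of all FPKM, the family made up 0.497% and 0.558% in Sox4f/f against 0.706% and 0.596% (exact p = 0.333). The sum of all FPKM was itself lower under the Sox4-MKO label, at 578011 and 544564 against 495145 and 472062, which raises such a share.
A small number of carriers made up most of this sum. The 12 highest members held between 83.5% and 88.2% of it in each library. Slc25a5, the ADP/ATP carrier of most tissues, had the highest mean of the 4 libraries, with 446 and 487 FPKM in the control mice against 418 and 399 FPKM under the Sox4-MKO label. In both libraries labelled Sox4-MKO, Slc25a1 was above it. Slc25a1, which exports citrate, held 7.48% and 9.67% of the family sum in Sox4f/f against 16.7% and 17.4%. Slc25a20, which imports acylcarnitines for beta-oxidation, held 8.8% and 8.06% against 4.38% and 6.1%.

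**Figure D1:**
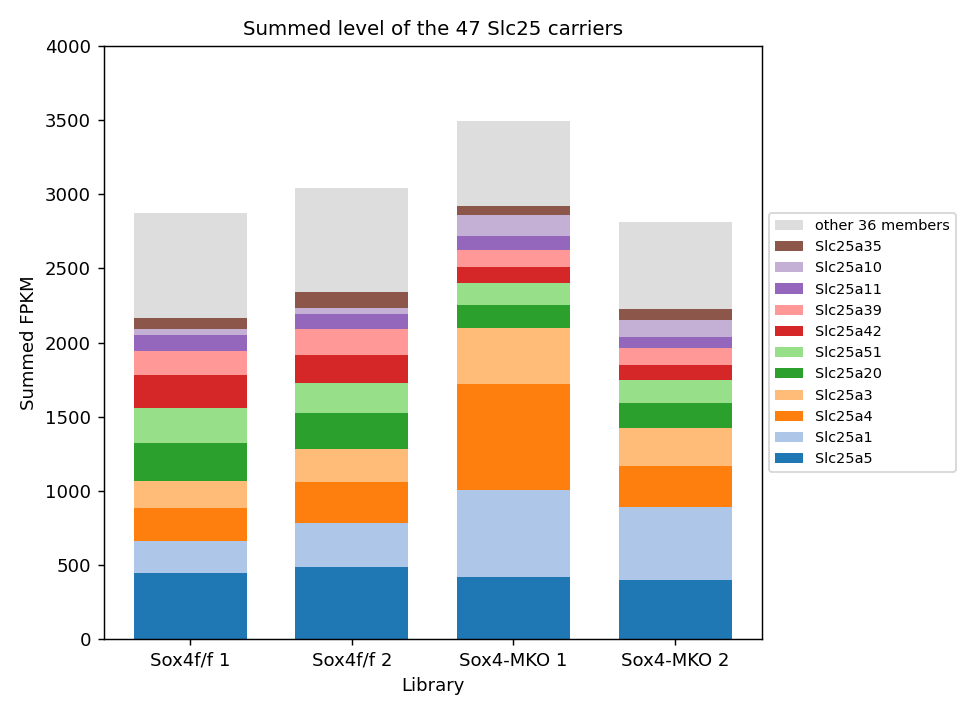
Summed FPKM of the 47 Slc25 carriers (y axis) in each of the 4 libraries (x axis), with 11 of the 12 highest members stacked in colour and the other 36 in grey. The sums were 2872 and 3041 FPKM in the control mice against 3497 and 2811 FPKM under the Sox4-MKO label, with taller Slc25a1 and Slc25a10 segments in the latter.

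By their mean over the 4 libraries, 9 members were above 100 FPKM, 16 between 10 and 100 FPKM and 22 at or below 10 FPKM. The filter of the study, a genotype mean above 1 FPKM for either genotype, kept 39 members, of which 14 were at or below 10 FPKM. None of these 39 was listed at 0 in any library. The 8 members that did not pass were Slc25a2, Slc25a13, Slc25a18, Slc25a21, Slc25a31, Slc25a41, Slc25a43 and Slc25a54. Of these, Slc25a41 and Slc25a54 were listed at 0 in all 4 libraries, and a listed 0 need not be an absent transcript, since Fasn, the fatty acid synthase of adipocytes, had 652 FPKM in the library of Sox4f/f mouse 1 but was listed at 0 in the remaining 3. The other 6 members stayed at or under 0.344 FPKM.
Slc25a31, the ADP/ATP carrier of germ cells, was listed at 0 in Sox4f/f mouse 1 and had 0.139 to 0.344 FPKM in the other 3 libraries. Slc25a13, the aspartate/glutamate carrier of liver, had 0.217 to 0.337 FPKM, from an estimated 8 to 14 fragments in each of the 3 libraries with a stable depth estimate. Differences between genotypes were not detectable at this depth for these members.

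**Figure D2:**
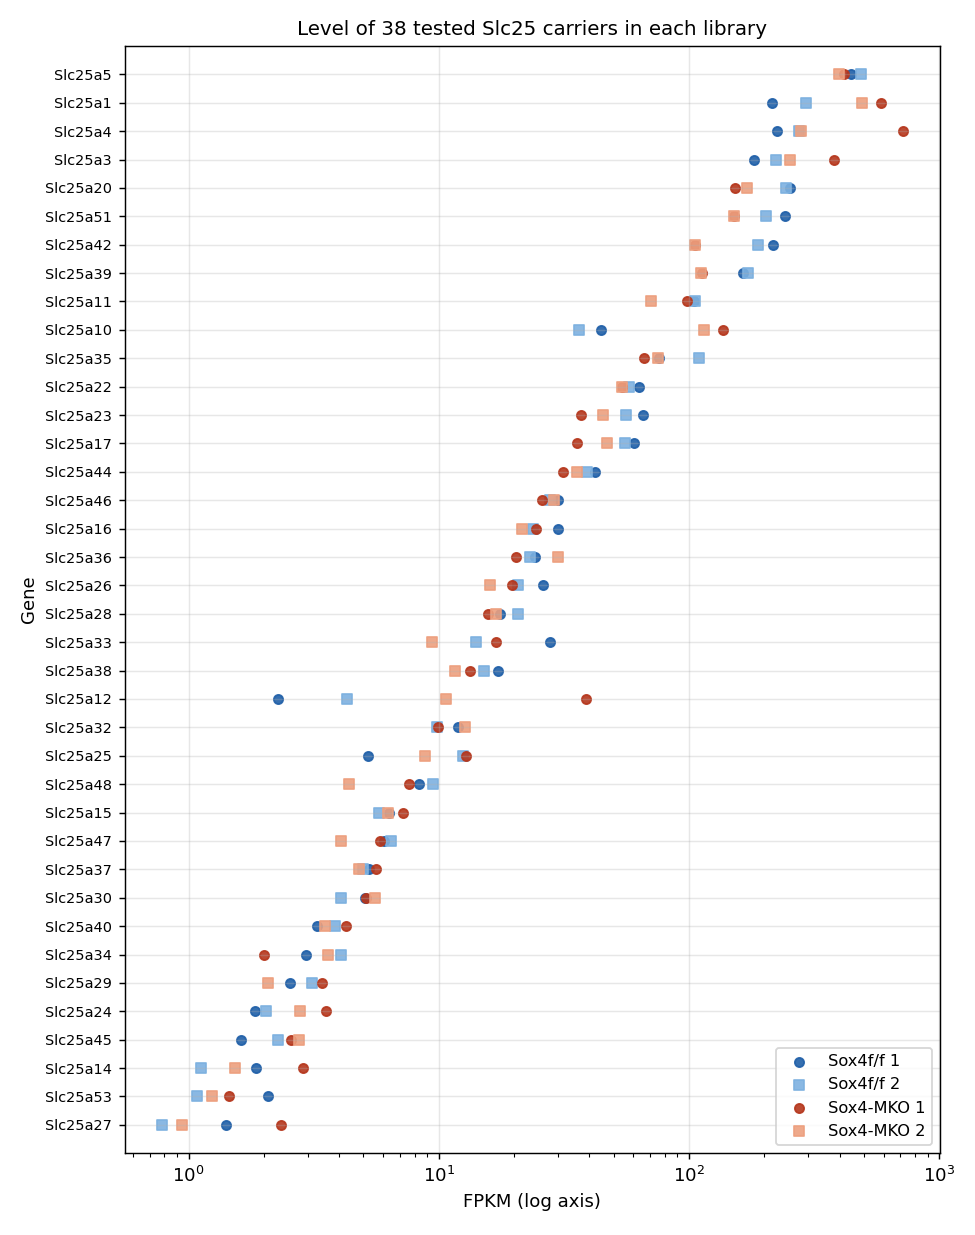
FPKM on a log axis (x axis) for 38 tested carriers (y axis, ordered by the mean of 4 libraries), with 1 point per library. Blue Sox4f/f points lie to the right of both red Sox4-MKO points for Slc25a42, Slc25a39 and Slc25a20, and to the left for Slc25a10, Slc25a1 and Slc25a12.

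The members differed in direction. The fit was limma on log2(FPKM + 1) over all 12877 genes that passed the filter, and its log2 fold changes, Sox4-MKO minus Sox4f/f, understate the change of low genes. Of the 39 tested members, 23 had a negative and 16 a positive log2 fold change, with a median of -0.16, beside -0.05 over all genes tested, of which 56% were negative. At an unadjusted p under 0.05, which is the threshold of the study, 7 members (17.9%) were lower under the Sox4-MKO label, against 8.28% of all genes tested, and 3 members (7.69%) were higher, against 7.95%. After the libraries were rescaled without mitochondrially encoded genes and Ucp1, these counts were 4 lower (against 5.79% of all genes tested) and 5 higher (against 10.3%). After Benjamini-Hochberg adjustment, 0 members and 0 of all genes tested passed 0.05, and the smallest adjusted p of a member was 0.191. Both libraries labelled Sox4-MKO lay below both Sox4f/f libraries for 17 members (43.6%, against 29.6% of all genes tested) and above them for 8 (20.5%, against 21.7%). The remaining 14 overlapped.
All 10 members with an unadjusted p under 0.05 were among the 25 tested members above 10 FPKM. In these 25, the median log2 fold change was -0.27 and 18 were negative, and 7 were lower and 3 higher at that threshold. Among all genes above 10 FPKM the median was -0.11, 64.9% were negative, 13.4% were lower and 6.89% higher. In the 14 at or below 10 FPKM the median was 0.11 and 5 were negative, beside 0.02 and 48.1% of all genes at that level.

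**Figure D3:**
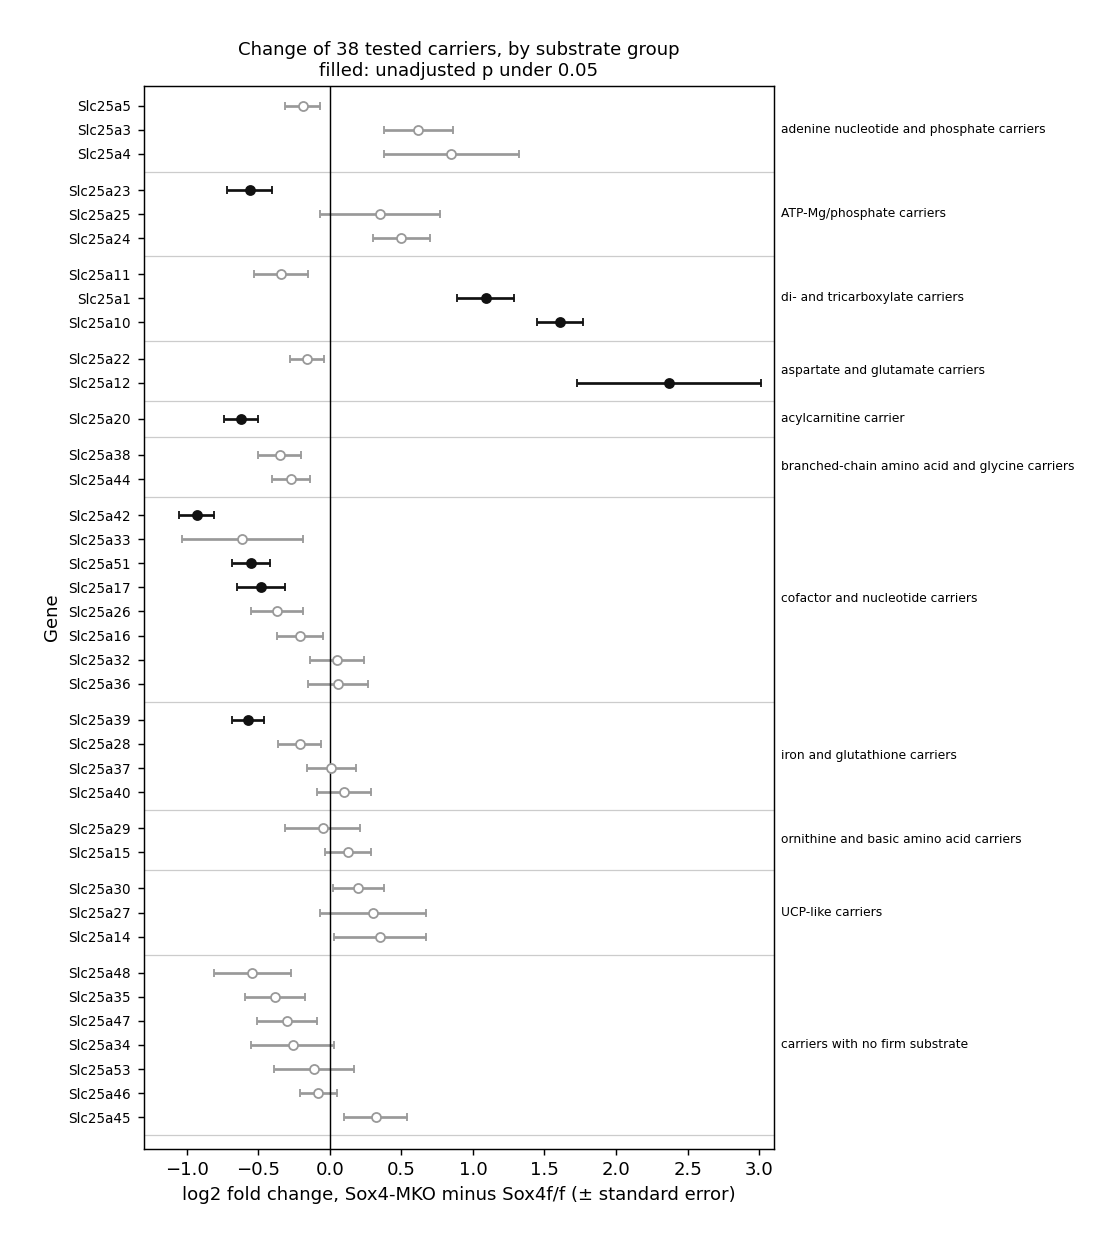
log2 fold change of FPKM + 1, Sox4-MKO minus Sox4f/f, with its standard error from limma (x axis) for 38 tested carriers (y axis), grouped by substrate. Filled points have an unadjusted p under 0.05: 3 of the 6 on the left are cofactor carriers, and the 3 on the right are Slc25a1, Slc25a10 and Slc25a12.

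Of the 7 lower members, 4 were cofactor carriers. All 9 cofactor and nucleotide carriers in the files passed the filter, 7 had a negative log2 fold change, 4 of them with an unadjusted p under 0.05, and the median was -0.48. Over all genes tested, 56% were negative and 8.28% lower at that threshold. Among all genes above 10 FPKM, the level of all 9 carriers, these shares were 64.9% and 13.4%, with a median of -0.11. The brown adipocyte markers were lower in the same libraries, and their part in the levels of the lower carriers was not tested. Slc25a42, which brings coenzyme A into the matrix, had 217 and 189 FPKM in the control mice against 106 FPKM in both Sox4-MKO-labelled libraries. The 2 latter libraries were far below the 2 former and close to each other. Its mean went from 203 ± 19.9 to 106 ± 0.0276 FPKM (SD, n = 2 mice each). On the log2 scale the fold change was -0.93 with a standard error of 0.12 (unadjusted p = 0.000909, adjusted p = 0.191 by limma), and the 12 alternative settings gave -1.03 to -0.83.
Slc25a51, the NAD carrier, had 242 and 203 FPKM in the control mice against 151 and 152 FPKM under the Sox4-MKO label, and the log2 fold change was -0.55 with a standard error of 0.13 (adjusted p = 0.219 by limma). Slc25a17, a carrier of the peroxisomal membrane, had 60.2 and 55.3 against 35.8 and 46.9 FPKM, with a difference on the log2 scale of -0.48 and a standard error of 0.17 (adjusted p = 0.285). The genotypes overlapped for neither gene, but both calls depended on the setting. Slc25a17 had an unadjusted p under 0.05 in 4 of 12 alternative settings. It lost it after each of the 3 other scalings (-0.50 to -0.41), with a constant prior and with mouse number as a block (unadjusted p = 0.0599 by limma). Its log2 fold change was -0.29 without Sox4-MKO 1, -0.42 without Sox4f/f mouse 1 and -0.54 without Sox4f/f mouse 2, each with p above 0.05 by limma. Slc25a51 kept it in 11 of 12 and lost it without Sox4f/f mouse 1 (-0.42).
The 5 cofactor and nucleotide carriers that did not pass the threshold had smaller or less even differences. Slc25a26, which imports S-adenosylmethionine, had 26 and 20.7 against 19.6 and 16.1 FPKM (log2 fold change -0.37). Slc25a16 had 29.9 and 23.9 against 24.5 and 21.6 FPKM, and its libraries overlapped. The pyrimidine nucleotide carriers Slc25a33 and Slc25a36 overlapped as well: Slc25a33 had 27.9 and 14.1 against 17 and 9.36 FPKM (log2 fold change -0.61, unadjusted p = 0.211 by limma, and 0.0141 with mouse number as a block), and Slc25a36 had 24.3 and 23.2 against 20.4 and 29.9 FPKM. Slc25a32, a folate and FAD carrier, had 11.9 and 9.86 against 9.95 and 12.7 FPKM. As a percentage of Slc25a33 plus Slc25a36, Slc25a33 ranged from 23.8% to 53.4% over the 4 libraries, with overlap between the genotypes.

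Slc25a20, the only acylcarnitine carrier of the list, had 253 and 245 FPKM in the control mice against 153 and 171 FPKM under the Sox4-MKO label. The Sox4f/f mice were close to each other and above both others. The mean was 249 ± 5.21 against 162 ± 13 FPKM (SD, n = 2 mice each). On the log2 scale the fold change was -0.62 with a standard error of 0.12 (unadjusted p = 0.00425, adjusted p = 0.196 by limma). Cpt1b, the muscle and brown fat enzyme that makes the acylcarnitines, had 321 and 347 against 187 and 181 FPKM. Of the 5 acylcarnitine enzymes and uptake genes listed, 4 had a negative log2 fold change and 1 was lower at an unadjusted p under 0.05. These shares were 56% and 8.28% for all genes tested and 64.9% and 13.4% for those above 10 FPKM.
Slc25a39, which imports glutathione, had 164 and 173 FPKM in the control mice against 113 and 112 FPKM under the Sox4-MKO label, and the log2 fold change was -0.57 with a standard error of 0.11 (unadjusted p = 0.00387, adjusted p = 0.196 by limma). Its paralogue Slc25a40 was far lower, at 3.25 and 3.84 against 4.24 and 3.5 FPKM, so that Slc25a39 made up 96.4% to 98.1% of the pair in each library. The iron carriers of this group did not pass the threshold. Slc25a28 (mitoferrin 2) had 17.5 and 20.7 against 15.7 and 17 FPKM, and Slc25a37 (mitoferrin 1), which is best known from red cell precursors, had 5.28 and 4.99 against 5.6 and 4.8 FPKM. Slc25a28 made up 73.7% to 80.6% of the pair. None of the 5 erythroid markers that passed the filter had an unadjusted p under 0.05.
Slc25a23, a calcium-regulated carrier of ATP-Mg and phosphate, had 65.5 and 56.1 FPKM in the control mice against 36.9 and 45.3 FPKM under the Sox4-MKO label. The log2 fold change was -0.56 with a standard error of 0.16 (unadjusted p = 0.0207, adjusted p = 0.242 by limma), and the unadjusted p stayed under 0.05 in 9 of 12 alternative settings but not without Sox4-MKO 1 (-0.41), without Sox4f/f mouse 1 (-0.45) or after rescaling without mitochondrially encoded genes and Ucp1 (-0.49). Its paralogues went the other way or overlapped. Slc25a24 had 1.85 and 2.03 against 3.55 and 2.8 FPKM (log2 fold change 0.50, unadjusted p = 0.0615 by limma), and Slc25a25 had 5.22 and 12.5 against 12.9 and 8.84 FPKM. Slc25a23 made up 90.3% and 79.4% of the 3 in Sox4f/f and 69.1% and 79.5% in the others, with overlap.

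The promoter windows of the 3 lower members with the smallest p are shown, as those whose unadjusted p stayed under 0.05 in all 12 alternative settings. Each runs 5′ to 3′ on the strand of the gene from 250 bases before to 50 bases after the RefSeq start site, in the GRCm38.p6 build. Capitals mark the letters of the motifs searched on both strands: CCAAT (bound by NF-Y), GGGCGG (the GC box), CACGTG (the E-box), AAGGTCA (an extended nuclear receptor half-site), ACAAAG (a SOX core) and CCCNNGGG (the EBF palindrome), where overlapping matches share capitals.
Slc25a42, chr8:70212232-70212531, minus strand: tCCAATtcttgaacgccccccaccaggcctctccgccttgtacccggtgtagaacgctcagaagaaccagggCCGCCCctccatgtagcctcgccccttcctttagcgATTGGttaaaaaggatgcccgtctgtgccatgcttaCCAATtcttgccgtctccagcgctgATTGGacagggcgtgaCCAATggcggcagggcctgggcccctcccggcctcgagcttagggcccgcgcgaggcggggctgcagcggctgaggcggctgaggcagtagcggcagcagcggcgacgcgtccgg
Slc25a39, chr11:102407468-102407767, minus strand: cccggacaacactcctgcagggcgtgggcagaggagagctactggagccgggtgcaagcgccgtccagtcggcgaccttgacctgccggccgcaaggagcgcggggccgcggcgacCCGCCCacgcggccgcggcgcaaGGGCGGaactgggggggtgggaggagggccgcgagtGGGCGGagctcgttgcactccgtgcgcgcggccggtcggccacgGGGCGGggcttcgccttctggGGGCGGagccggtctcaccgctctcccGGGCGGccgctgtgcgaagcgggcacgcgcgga
Slc25a20, chr9:108661886-108662185, plus strand: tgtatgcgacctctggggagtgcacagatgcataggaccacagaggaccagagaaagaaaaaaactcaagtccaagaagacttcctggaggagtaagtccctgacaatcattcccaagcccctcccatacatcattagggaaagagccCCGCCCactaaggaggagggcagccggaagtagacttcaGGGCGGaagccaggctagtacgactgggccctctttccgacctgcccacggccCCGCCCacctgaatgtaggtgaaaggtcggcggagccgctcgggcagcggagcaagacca
The Slc25a42 window held CCAAT 5 times and the GC box 1 time, whereas Slc25a39 and Slc25a20 held the GC box 6 and 3 times and none of the other motifs. A match is a description of the letters and not of a bound site.

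Of the 3 higher members, Slc25a10 and Slc25a1 carry di- and tricarboxylates. Slc25a10, the dicarboxylate carrier, which exchanges malate or succinate for phosphate, had 44.5 and 36.5 FPKM in the control mice against 137 and 115 FPKM under the Sox4-MKO label. The mean was 40.5 ± 5.66 against 126 ± 15.3 FPKM (SD, n = 2 mice each), which is a ratio of 3.11 and a log2 difference of 1.61 with a standard error of 0.16 (unadjusted p = 0.000274, adjusted p = 0.191 by limma). It had the smallest p of the family, and the 12 alternative settings gave log2 fold changes of 1.47 to 1.75. Slc25a1 had 215 and 294 FPKM in the control mice against 585 and 490 FPKM in the Sox4-MKO-labelled mice, a mean of 254 ± 56 against 538 ± 67.1 FPKM (SD, n = 2 mice each), which is a ratio of 2.11 and a log2 difference of 1.09 with a standard error of 0.20 (unadjusted p = 0.00367, adjusted p = 0.196 by limma). For both genes the lower of the libraries labelled Sox4-MKO was above the higher Sox4f/f library. Slc25a11, the oxoglutarate/malate carrier of the same substrate group, had 105 and 106 against 98.1 and 70.5 FPKM, with a log2 difference of -0.34 (unadjusted p = 0.133 by limma) that was -0.58 without Sox4-MKO 1 (unadjusted p = 0.0104 by limma) and -0.11 without Sox4-MKO 2 (unadjusted p = 0.406 by limma). Slc25a21, the oxodicarboxylate carrier, was listed at 0 in 3 libraries.
Of the 11 malate, aspartate and citrate shuttle enzymes listed, 4 were higher and 3 lower at an unadjusted p under 0.05, against 7.95% and 8.28% of all genes tested. For all genes above 10 FPKM, the level of these enzymes, the shares were 6.89% and 13.4%. Me1, the cytosolic malic enzyme, had 128 and 181 FPKM in the control mice against 510 and 423 FPKM under the Sox4-MKO label. Acly, which splits exported citrate in the cytosol, had 168 and 517 against 642 and 591 FPKM (unadjusted p = 0.113 by limma). On the matrix side, citrate synthase (Cs) had 807 and 842 against 677 and 542 FPKM and Idh2 254 and 256 against 167 and 140 FPKM.

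Slc25a12, the aspartate/glutamate carrier of muscle and brain and a part of the malate-aspartate shuttle, showed the largest ratio of the tested members. It had 2.28 and 4.3 FPKM in the control mice against 38.9 and 10.7 FPKM under the Sox4-MKO label, a mean of 3.29 ± 1.43 against 24.8 ± 20 FPKM (SD, n = 2 mice each). The genotypes did not overlap, but Sox4-MKO 1 stood well apart from Sox4-MKO 2. The log2 fold change was 2.37 (standard error 0.64, unadjusted p = 0.0161, adjusted p = 0.231 by limma), and it was 1.49 without Sox4-MKO 1 and 3.26 without Sox4-MKO 2. With a single Sox4f/f library its unadjusted p was above 0.05, at log2 fold changes of 2.03 without mouse 1 and 2.72 without mouse 2. Its partner enzymes Got1 (11.3 and 11.9 against 58.4 and 23.6 FPKM) and Got2 (22.3 and 29.2 against 71.4 and 38.2 FPKM) had the same order of libraries. The glutamate carrier Slc25a22 had 63.4 and 57.4 against 53.8 and 54.1 FPKM, without overlap (unadjusted p = 0.236 by limma), and Slc25a18, the other glutamate carrier, stayed under 0.1 FPKM in every library. Slc25a12 made up 87.1% and 95.2% of Slc25a12 plus Slc25a13 in Sox4f/f and 99.3% and 97.7% in the others.
The ADP/ATP and phosphate carriers included genes with a similar spread between the libraries labelled Sox4-MKO. Slc25a4, the ADP/ATP carrier of heart and skeletal muscle, had 224 and 276 FPKM in the control mice against 717 and 281 FPKM in libraries 1 and 2 labelled Sox4-MKO. Sox4-MKO 2 was thus next to Sox4f/f mouse 2. Its log2 fold change of 0.85 (standard error 0.47, unadjusted p = 0.132, adjusted p = 0.428 by limma) was 0.18 without Sox4-MKO 1 and 1.53 without Sox4-MKO 2. Slc25a3, the phosphate carrier, had 182 and 223 against 380 and 253 FPKM, with a log2 difference of 0.62 and a standard error of 0.24 (unadjusted p = 0.0528, adjusted p = 0.313 by limma) that was 0.33 without Sox4-MKO 1 and 0.91 without Sox4-MKO 2. Its unadjusted p was under 0.05 in the latter setting, after each of the 3 other scalings and with a pseudocount of 0.1. For Slc25a5 the log2 fold change was -0.19 (unadjusted p = 0.167 by limma), and both libraries labelled Sox4-MKO were below both Sox4f/f libraries. Slc25a4 made up 33.4% and 36.2% of Slc25a4 plus Slc25a5 in Sox4f/f and 63.2% and 41.4% in the others (exact two-sided permutation p = 0.333, the smallest possible). The difference of the means of these shares was 17.5 percentage points, and 6.6 without Sox4-MKO 1.
Slc25a1, Slc25a3, Slc25a4, Slc25a12 and Slc25a24 had their lowest level in Sox4f/f 1, followed by Sox4f/f 2, Sox4-MKO 2 and Sox4-MKO 1. These were 5 of the 39 tested members (12.8%, against 8.75% of all genes tested), and 11 of the 12 muscle markers, all but Myh4, had the same order of libraries. All 12 muscle markers were above 0 in every library. At an unadjusted p under 0.05 by limma, 10 of them had higher levels under the Sox4-MKO label, against 7.95% of all genes tested. Their summed level was 230 to 818 FPKM in the control mice against 3070 to 15650 FPKM in the Sox4-MKO-labelled mice. Acta1 alone had 59.9 and 226 against 4512 and 898 FPKM. The part of muscle transcripts in the levels of these 5 carriers was not tested. Slc25a10 did not have this order, since Sox4f/f mouse 1 was above mouse 2. Without Sox4-MKO 1, the log2 fold change was 0.96 for Slc25a1 and 1.49 for Slc25a10. The remaining library Sox4-MKO 2 also had a higher muscle sum (3070 FPKM) than both control mice (230 and 818 FPKM). The part of muscle transcripts in the level of Slc25a10 was not tested either.

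**Figure D4:**
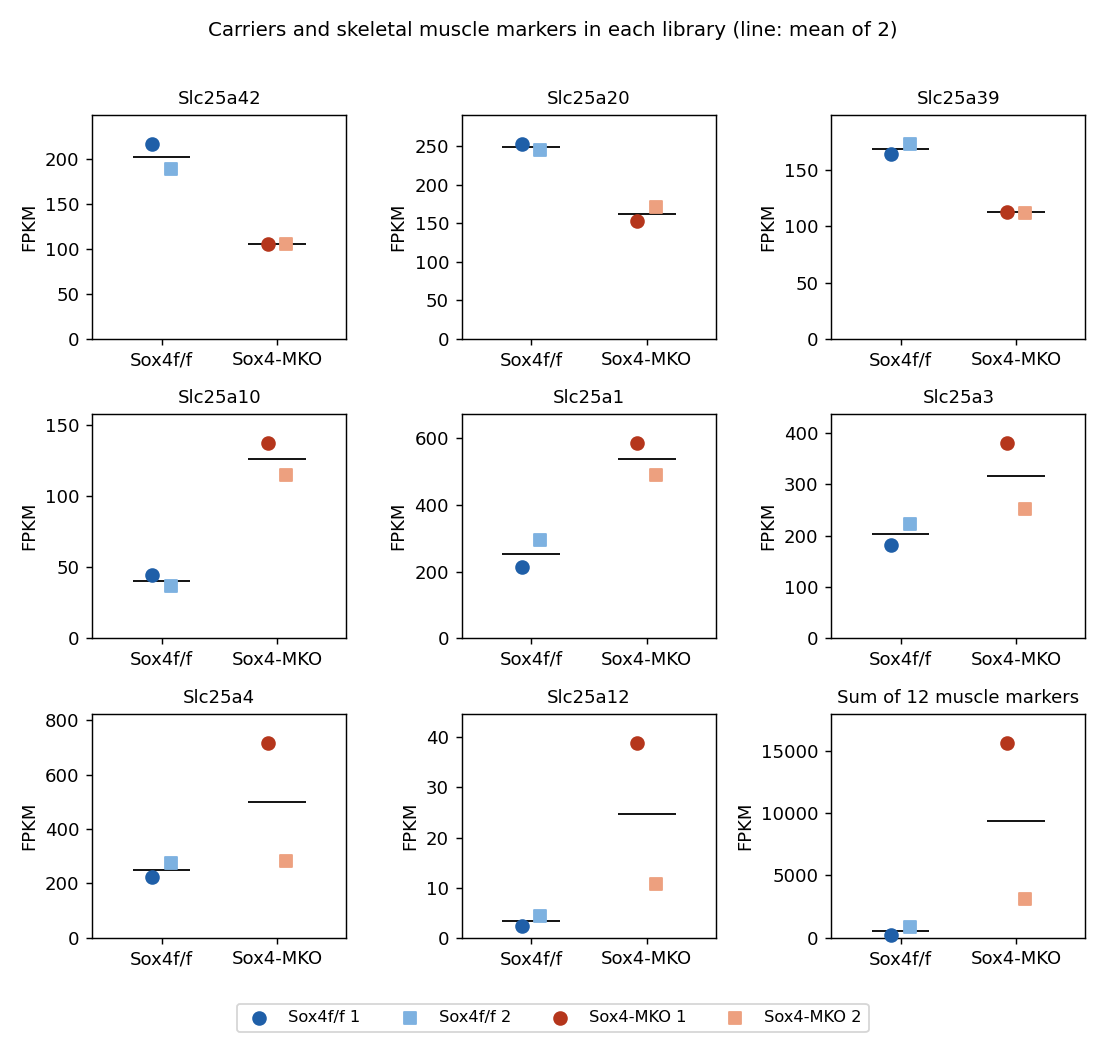
FPKM (y axis, from 0) of 8 carriers and of the sum of 12 skeletal muscle markers in each library (points) with the mean of 2 mice (line), by genotype (x axis). Slc25a42, Slc25a20 and Slc25a39 were lower and Slc25a10 and Slc25a1 higher in both libraries labelled Sox4-MKO, whereas Slc25a4, Slc25a12 and the muscle sum had their highest value by far in Sox4-MKO 1.

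The promoter windows of the 3 higher members are shown with the same motifs in capitals.
Slc25a10, chr11:120491587-120491886, plus strand: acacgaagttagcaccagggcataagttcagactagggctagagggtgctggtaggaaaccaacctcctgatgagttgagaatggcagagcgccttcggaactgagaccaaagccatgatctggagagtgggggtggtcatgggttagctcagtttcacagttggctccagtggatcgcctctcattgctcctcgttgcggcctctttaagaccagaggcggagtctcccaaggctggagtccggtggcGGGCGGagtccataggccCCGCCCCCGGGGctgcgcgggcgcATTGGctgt
Slc25a1, chr16:17928170-17928469, minus strand: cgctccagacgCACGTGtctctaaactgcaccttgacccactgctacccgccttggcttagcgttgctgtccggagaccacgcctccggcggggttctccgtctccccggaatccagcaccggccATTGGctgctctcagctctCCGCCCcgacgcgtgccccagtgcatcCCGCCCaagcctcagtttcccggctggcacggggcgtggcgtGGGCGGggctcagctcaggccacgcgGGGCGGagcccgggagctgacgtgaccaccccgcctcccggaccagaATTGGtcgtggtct
Slc25a12, chr2:71367706-71368005, minus strand: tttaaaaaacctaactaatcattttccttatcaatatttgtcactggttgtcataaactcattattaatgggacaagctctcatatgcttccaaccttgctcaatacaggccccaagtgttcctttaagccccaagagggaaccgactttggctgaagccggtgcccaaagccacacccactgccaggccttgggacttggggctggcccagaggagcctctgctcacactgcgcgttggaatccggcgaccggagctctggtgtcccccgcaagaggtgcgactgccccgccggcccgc
Slc25a10 held the GC box 2 times, CCAAT 1 time and the EBF palindrome 2 times, in overlapping letters. Slc25a1 held the GC box 4 times, CCAAT 2 times and the E-box 1 time, and Slc25a12 held none of the 6 motifs.
A window was found for 36 of the 47 members, in 46 windows because some genes have several start sites. Windows of the same gene can share bases and were counted separately. By gene, the GC box was found in 30 of the 36 members, CCAAT in 19, the EBF palindrome in 9, the E-box in 7, the SOX core in 3 and the nuclear receptor half-site in 1. The GC box was present in 82.6% of the 46 windows, against 35.7% of all 32851 RefSeq windows. CCAAT was present in 47.8% against 37.4%, the E-box in 17.4% against 7.15%, the EBF palindrome in 19.6% against 13.7%, the SOX core in 10.9% against 18.7% and the nuclear receptor half-site in 2.17% against 4.72%. The median GC content was 59.3% in the member windows and 52.7% in all windows.

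Slc25a44, which takes branched-chain amino acids into brown fat mitochondria, had 42.1 and 39.2 FPKM in the control mice against 31.5 and 35.7 FPKM under the Sox4-MKO label. The genotypes did not overlap, but the log2 fold change of -0.27 (standard error 0.13, unadjusted p = 0.0959, adjusted p = 0.378 by limma) did not pass the threshold. Of 12 branched-chain breakdown genes, 11 had a negative log2 fold change, against 56% of all genes tested, and 4 were lower at an unadjusted p under 0.05, against 8.28%, among them Bckdha with 236 and 235 against 147 and 150 FPKM. Among all genes above 10 FPKM, 64.9% were negative and 13.4% lower at that threshold. Slc25a38, which imports glycine for haem synthesis, had 17.2 and 15.1 against 13.3 and 11.6 FPKM (log2 fold change -0.35, unadjusted p = 0.0724 by limma).
The ornithine carrier Slc25a15 and the basic amino acid carrier Slc25a29 overlapped, and their log2 fold changes were 0.13 and -0.05. The UCP-like carriers Slc25a14, Slc25a27 and Slc25a30 all had positive log2 fold changes, from 0.20 to 0.35, at levels of 0.781 to 5.57 FPKM, and none passed the threshold. Of the 9 carriers without a firmly assigned substrate, 7 passed the filter, 6 had a negative log2 fold change and none passed the threshold. The highest of them was Slc25a35, at 76.2 and 110 against 65.9 and 74.9 FPKM. Slc25a46, an outer membrane protein of mitochondrial dynamics, had 29.9 and 27.9 against 25.9 and 28.8 FPKM and overlapped.

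In GENCODE M21, whose GRCm38 build is that of the mm10 genome in the processing notes, all 47 members are protein coding and lie on 19 chromosomes. The coding sequence of the principal transcript has 265 to 364 codons in 40 members and over 400 in the other 7, and the longest are Slc25a12 and Slc25a13 with 677 and 676 codons. Slc25a23, Slc25a24 and Slc25a25, which like the latter pair bear a calcium-binding extension, have 467, 475 and 514 codons.
Some members are neighbours in the genome. On chromosome 17, Slc25a41 lies 2056 bp from Slc25a23, and the former was listed at 0 in every library whereas Slc25a23 had 36.9 to 65.5 FPKM. On the X chromosome, Slc25a43 lies 18448 bp from Slc25a5 and had 0.0911 to 0.344 FPKM beside 399 to 487 FPKM. On chromosome 3, Slc25a54, listed at 0, lies 6461 bp from Slc25a24. The annotated extents of Slc25a29 and Slc25a47 lie 162 bp apart on opposite strands of chromosome 12, with levels of 2.08 to 3.42 and 4.07 to 6.43 FPKM. Their RefSeq promoter windows begin much further apart, at 108835827 and 108850879.
Of the members lower or higher at an unadjusted p under 0.05, Slc25a42 lies on chromosome 8 from 70184340 to 70212305, Slc25a20 on chromosome 9 from 108662088 to 108684641 and Slc25a39 on chromosome 11 from 102402985 to 102407946. Slc25a10 lies on chromosome 11 from 120491840 to 120499187, Slc25a1 on chromosome 16 from 17925223 to 17928219 and Slc25a12 on chromosome 2 from 71271063 to 71367749. Exons of 228 bp of Slc25a10 and 168 bp of Slc25a23 overlap Gm11788 and Gm17168 on the other strand, and 1151 bp of Slc25a35 overlap Rangrf there. On the same strand, 125 bp of Slc25a51 overlap Gm25692, which no strand setting can separate. The sample labels name a stranded library kit and the methods of the paper another kit, and the strand setting of the counting is not given in the sources used here, so reads of such overlapping genes cannot be told apart. The pseudogene Slc25a5-ps, a copy of Slc25a5, was listed at 0.0543 to 0.124 FPKM, and reads shared by such copies or by Slc25a4 and Slc25a5 make their levels uncertain.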

How the data were processed

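RNA sequencing of brown fat from 2 Sox4f/f and 2 Sox4-MKO mice was analysed. The authors deposited 1 FPKM value per gene symbol and library, with 66 symbols on more than 1 row. The submitters' processing notes name Cufflinks 2.1.1, Cuffdiff and the mm10 genome, and the aligner and annotation are not given in the sources used here. No column of other samples was left out. FPKM are not counts, so limma 3.58.1 in R 4.3.3 modelled log2(FPKM + 1) by genotype alone with a trended prior, for genes whose mean in either genotype exceeded 1 FPKM. p-values are two-sided and were adjusted by Benjamini-Hochberg over all 12877 genes tested. Members are all rows whose symbol is Slc25a followed by digits. Named with the value of every library are the 12 highest members, those with an unadjusted p under 0.05 and the tested members of 6 paralogue groups. Of these, 1 member is not reported here. Further members were named within their substrate group after their values were seen. The members and the gene lists were chosen with earlier results of these data known. Depth was estimated from the value of 1 fragment in genes with a single GENCODE M21 transcript of at least 1500 nt, is approximate, and bears on counting error only. Promoter windows are those of RefSeq (GRCm38.p6). Alternatives were 3 scalings, a pseudocount of 0.1, filters at 5 FPKM and none, a constant prior, a replicate block and leaving out each library. Figures were drawn with matplotlib 3.10.9.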

Additional observations from a re-analysis of the deposited data

How the results depend on the processing

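With 2 mice per genotype the unadjusted p-values rest on a small spread estimate, and no member passed after adjustment. Over the 12 alternatives, Slc25a42, Slc25a39, Slc25a20, Slc25a10 and Slc25a1 had an unadjusted p under 0.05 in 12, Slc25a51 in 11, Slc25a12 in 10, Slc25a23 in 9 and Slc25a17 in 4. After rescaling without mitochondrially encoded genes and Ucp1, 4 members were lower and 5 higher and their median was -0.09, beside 0.01 over all genes tested. With no FPKM limit, 45 members were tested and the median was -0.05. The signs of Slc25a37 and Slc25a40 turned after quantile normalization (-0.06 and -0.03) and that of Slc25a37 after scaling to a common median (-0.01). Leaving out each library in turn gave 4 to 7 lower members (4 without Sox4f/f mouse 1, beside 3.14% of all genes), 2 to 6 higher members (6 without Sox4-MKO 2, beside 12% of all genes, and 2 without Sox4f/f mouse 1 or mouse 2, beside 3.46% and 4.4%), a median of -0.16 to -0.12 and a log2 ratio of the summed level of -0.07 to 0.24. It gave -0.21 to 0.91 for Slc25a25, -0.08 to 0.11 for Slc25a37, -0.01 to 0.21 for Slc25a40 and -0.21 to 0.32 for Slc25a36. Over genes, same-numbered libraries deviated with a correlation of -0.01, which gave no sign of a pairing by mouse number. With 2 mice per genotype, this value cannot exclude a pairing. With mouse number as a replicate block, 7 members were lower and 3 higher, with a median of -0.16, a summed log2 ratio of 0.09 and an isoform share difference of 17.5, but Slc25a17 no longer passed the threshold and Slc25a33 did. The low depth behind the members under 1 FPKM limits any statement on them.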

Other observations

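Genes that handle the same proteins or substrates are given as values. Of the 14 genes listed for import of carriers through TIM22, 13 were in the files and tested. All 13 had a negative log2 fold change in the libraries labelled Sox4-MKO, with a median of -0.30. Over all genes tested, 56% were negative with a median of -0.05, and above 10 FPKM 64.9% with a median of -0.11. At an unadjusted p under 0.05, 3 of the 13 were lower, beside 8.28% of all genes tested and 13.4% of those above 10 FPKM, the level of most of the list. Timm22, the channel of that translocase, had 20.8 and 18.7 FPKM in Sox4f/f and 11.8 and 13.6 FPKM in the others. Timm13, a chaperone of the intermembrane space, had 94.7 and 92.4 against 69.2 and 63.1 FPKM, and Tomm40, the channel of the outer membrane, had 53.9 and 64 against 41.5 and 41.2 FPKM. None passed after adjustment over all genes, and the smallest adjusted p of the list was 0.214 by limma.
Of 17 other mitochondrial carriers and channels, 3 were lower and 2 higher at an unadjusted p under 0.05, beside 8.28% and 7.95% of all genes tested. For all genes above 10 FPKM, the level of most of this list, the shares were 13.4% and 6.89%. Mtch1, a family member of the outer membrane, had 160 and 145 against 102 and 111 FPKM. The pyruvate carrier subunit Mpc1 overlapped, with 419 and 520 against 704 and 482 FPKM. Sfxn1, a serine carrier outside the SLC25 family, had 45.6 and 48.8 against 58.2 and 76.7 FPKM. Among the uncoupling proteins, Ucp1 had 1935 and 1814 against 733 and 1105 FPKM, whereas Ucp2 and Ucp3 overlapped and differed by -0.08 and -0.14 on the log2 scale.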
